A study of Mus musculus with 3 samples.

Results

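The cells described here are 90 natural killer (NK) and type 1 innate lymphoid (ILC1) cells of mouse liver, found among 8087 cells from 3 livers. They were chosen by their own transcript counts: at least 3 unique molecular identifiers (UMIs, each standing for 1 captured mRNA molecule) summed over Ncr1, Klrb1c, Klre1, Gzma and Prf1, at most 1 UMI summed over Cd3e, Cd3g, Cd3d and Trac, at most 1 UMI of Cd79a and Ms4a1, and fewer than 20 UMIs of Clec4f, Vsig4 and Cd5l per 10000. To count as a cell, a barcode needed 1000 UMIs or more, 300 detected genes or more and a mitochondrial share of no more than 20%. The gate took 54 of 3545 cells in the group IDD+HID, 26 of 3208 in IDD+HTF and 10 of 1334 in IDD.

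Each group was 1 wild-type mouse and 1 droplet library, and all 3 mice had eaten an iron-deficient diet of 2 to 6 ppm iron for 1 week. The IDD+HID mouse was then fed 2% carbonyl iron for the last 18 h. The IDD+HTF mouse received 10 mg of holo-transferrin, iron-bearing transferrin, into a vein, and the labels read here do not state the interval until collection. The IDD mouse had the iron-deficient diet and nothing else; the labels read here give no strain, sex or age. Livers were perfused and digested with collagenase and pronase, red cells were lysed, and a suspension of 5% hepatocytes and 95% non-parenchymal cells was loaded. Because each group is 1 mouse, differences between mice, treatments and libraries cannot be told apart, no test across mice is possible, and every interval printed here reflects the counting of molecules or cells alone.

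NK cells and ILC1s are lymphocytes without rearranged antigen receptors. They kill target cells with perforin and granzymes, and they release interferon-gamma and chemokines when activating receptors or cytokines such as IL-12, IL-15 and IL-18 stimulate them. In mouse liver, circulating conventional NK cells depend on the transcription factor Eomes and carry integrin alpha-2 and Ly49 receptors, while ILC1s stay in the tissue and carry integrin alpha-1, Cxcr6 and Cd200r1.

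The libraries held 75404660, 55478904 and 34552858 UMIs in all barcodes in IDD+HID, IDD+HTF and IDD. The median NK or ILC1 cell had 6026, 5080 and 5126 UMIs in these libraries, while the median over all cells was 8608, 4467 and 3649 UMIs. Summed over the NK and ILC1 cells, 359616 UMIs were available in IDD+HID, 132292 in IDD+HTF and 58883 in IDD, so the IDD values are the least precise. Droplets with at most 100 UMIs, which sample free RNA, took 3.36%, 3.94% and 10.9% of the UMIs. Each pair of libraries shared 1 cell barcode, and none of these was an NK or ILC1 cell.

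The gate had a clear edge. Among cells that met the other limits, none had a score of 3, 4, 5 or 6 UMIs. The lowest score inside the gate was 7 UMIs in IDD+HID, 10 in IDD+HTF and 9 in IDD, and just outside it 3, 1 and 1 cells had a score of 2 UMIs. The median score was 64.5, 60.5 and 98.5 UMIs. A single CD3 or T cell receptor UMI was present in 8, 4 and 1 of the cells inside. Another 7 barcodes of IDD+HID, and 0 of IDD+HTF and IDD, met the gene limits but were above the mitochondrial limit.

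The label was checked against genes outside the gate and against markers of other cells. Tyrobp and Fcer1g, adaptor proteins of activating receptors, stood at 2578 and 1852 counts per 1000000 UMIs of the summed cells (CPM) in IDD+HID, at 2857 and 1988 in IDD+HTF and at 2021 and 2259 in IDD. Nkg7, a cytotoxic granule protein, and the chemokine Ccl5 had at least 1 UMI in each of the 90 cells. Neither gene is particular to them. In cells with CD3 or T cell receptor transcripts that met the same score, Nkg7 stood at 1444, 1481 and 1317 CPM. Ccl5 stood at 6829, 7294 and 7122 CPM in those CD3 cells of IDD+HID, IDD+HTF and IDD. The co-receptor genes Cd8a and Cd8b1 and the T cell gene Cd6 had 0 UMIs in the cells of all 3 libraries, and all 5 erythroid markers were at 0. Other T cell genes were present, and the 10 genes of that list summed to 1135, 1051 and 1223 CPM in IDD+HID, IDD+HTF and IDD. In those CD3 cells the list summed to 4456, 3836 and 3416 CPM. Trbc1, a T cell receptor gene outside the gate, stood at 481, 484 and 476 CPM, in 48 of 54, 22 of 26 and 9 of 10 cells. Trbc2 stood at 286, 287 and 476 CPM. The CD3 cells had Trbc1 at 1127, 958 and 1049 CPM and Trbc2 at 1749, 1520 and 1332 CPM.

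Markers of other liver cells were uneven between the libraries. In IDD+HID, 4 cells held between 148 and 225.3 UMIs of endothelial, Kupffer and stellate genes per 10000, and another 2 held 85.8 and 88.6 UMIs of hepatocyte genes per 10000. No cell of IDD+HTF or IDD reached 50 per 10000 of either kind. Summed, the 11 endothelial genes gave 2536, 22.7 and 0 CPM in IDD+HID, IDD+HTF and IDD, and 108 CPM in IDD+HID without those 6 cells. The 10 hepatocyte genes summed to 2086, 1519 and 577 CPM, beside 32547, 29855 and 16297 CPM in the free RNA of the same libraries. The 10 Kupffer genes summed to 306, 30.2 and 0 CPM, and 5, 7 and 10 of them were at 0. The 6 dendritic cell genes summed to 514, 37.8 and 51 CPM, and to 47.1 CPM in IDD+HID without the 6 cells. The 8 B cell genes summed to 865, 166 and 119 CPM, and to 219 CPM without them. Whether the 6 cells are droplets with more than 1 cell was not tested, and most counts of genes below are given with and without them.

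**Figure D1:**
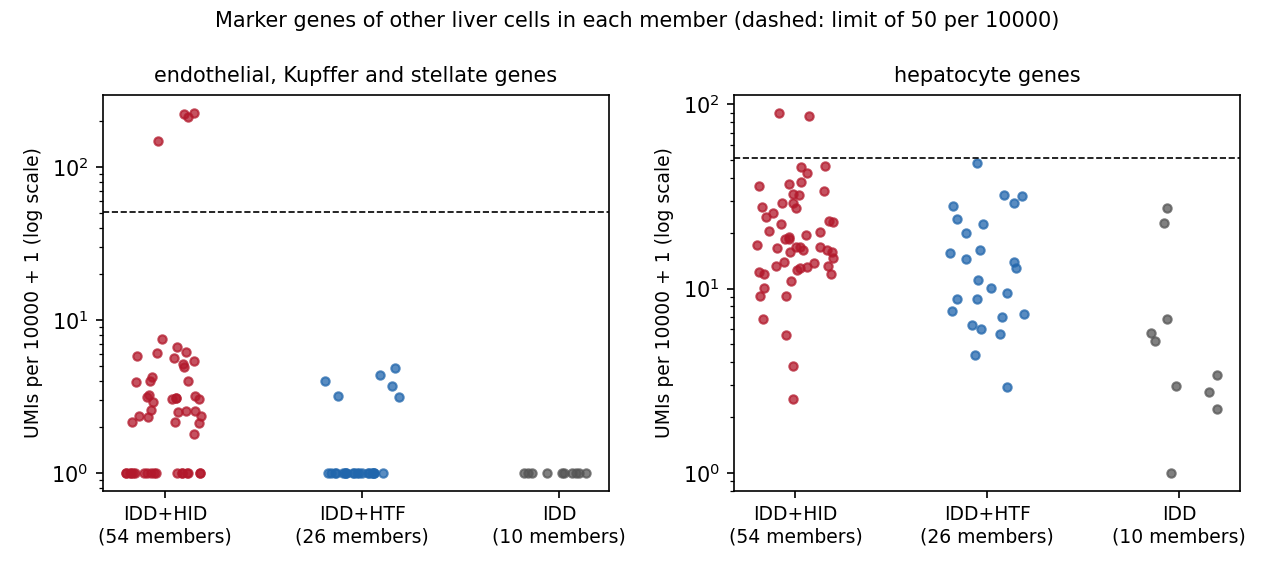
Endothelial, Kupffer and stellate genes (left) and hepatocyte genes (right) in UMIs per 10000, plus 1, on a log axis, 1 point per NK or ILC1 cell, in IDD+HID (54 cells), IDD+HTF (26 cells) and IDD (10 cells). Only IDD+HID has points above the dashed limit of 50 per 10000: 4 cells in the left panel and 2 in the right.

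NK and ILC1 cells made up 1.52% of cells in IDD+HID (1.15 to 1.98%, exact Clopper-Pearson 95% interval). The share was 0.811% in IDD+HTF (0.53 to 1.19%), and in IDD it was 0.75% (0.36 to 1.37%). The IDD+HID share was above that of IDD+HTF, with intervals that overlapped slightly, and the IDD interval overlapped both. These shares depend on how many hepatocytes and other cells each suspension held. With only NK, ILC1 and CD3 or T cell receptor cells as the denominator, the share was 15.9% in IDD+HID (12.2 to 20.2%). It was 14.5% for IDD+HTF (9.71 to 20.6%) and 9.9% for IDD (4.85 to 17.5%), and all 3 intervals overlapped. B cells, taken as cells with at least 2 UMIs of Cd79a and Ms4a1, a CD3 sum of at most 1 and a score under 3, were 13.5%, 5.67% and 6.82% of cells.

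The score genes are given as a description, since they chose the cells. Gzma, which encodes granzyme A, stood at 7160, 8799 and 11395 CPM in IDD+HID, IDD+HTF and IDD, and had a UMI in 45 of 54, 23 of 26 and 9 of 10 cells. Ncr1, the activating receptor NKp46, stood at 742, 862 and 1053 CPM in 53 of 54, 25 of 26 and 10 of 10 cells. Prf1, which encodes perforin, stood at 823, 794 and 1138 CPM. All 5 score genes had a UMI in 40 of 54, 20 of 26 and 9 of 10 cells.

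Beyond the score genes, the genes that set these cells furthest apart from all other cells were Ly49 receptors. Among 408 genes with at least 20 UMIs in the NK and ILC1 cells of every library, the ratio of the mean level in these cells over all other cells was 3353 for Klra8, 2008 for Klra4, 1127 for the pseudogene Klra13-ps, 466 for Klra9 and 432 for Ncr1. Klra8 encodes the activating receptor Ly49H, Klra4 the activating receptor Ly49D and Klra9 the inhibitory receptor Ly49I. In all other cells Klra8 stood at 0.087, 0.34 and 0 CPM and Klra4 at 0.32, 0.583 and 0.154 CPM in IDD+HID, IDD+HTF and IDD. The size and order of the largest ratios therefore rest on very few UMIs outside these cells. The 408 genes were chosen by their UMIs in the NK and ILC1 cells alone. The Ly49 genes are close copies, so the division of reads among them is uncertain. Eomes had a ratio of 164 and Ifng of 35.5.

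Cells with CD3 or T cell receptor transcripts that met the same NK score offer a nearer comparison; there were 110, 43 and 19 of them. Klra8 stood at 564, 393 and 476 CPM in NK and ILC1 cells of IDD+HID, IDD+HTF and IDD, beside 0, 3.85 and 0 CPM in these CD3 cells. Eomes stood at 364, 431 and 476 CPM, in 42 of 54, 19 of 26 and 9 of 10 cells, beside 37.2, 38.5 and 7.24 CPM in the CD3 cells. Irf8, a transcription factor used by NK cells and by dendritic cells, stood at 1148, 756 and 866 CPM, beside 77, 62 and 72 CPM. All 3 genes were higher in NK and ILC1 cells in each library.

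Other genes ran the other way. Cxcr6, a chemokine receptor of liver-resident lymphocytes, stood at 86.2, 129 and 67.9 CPM in NK and ILC1 cells, beside 793, 593 and 673 CPM in the CD3 cells that met the score. Cd226, an activating receptor, stood at 158, 113 and 119 CPM, beside 514, 642 and 463 CPM. Ltb, which encodes lymphotoxin-beta, stood at 239, 393 and 408 CPM, beside 766, 723 and 688 CPM. These 3 genes were lower in NK and ILC1 cells in each library.

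B cells, which should lack these genes, show how often free RNA gives a cell a UMI. Klra4 and Klra8 had one in 0 of 478, 0 of 182 and 0 of 91 B cells, which allows shares of up to 0.628%, 1.65% and 3.30%, at median depths of 4621, 3674 and 4082 UMIs. Eomes had one in 2, 4 and 1 of these B cells. Gzma had one in 6, 1 and 0, although the limit on the score also keeps Gzma low in them.

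**Figure D2:**
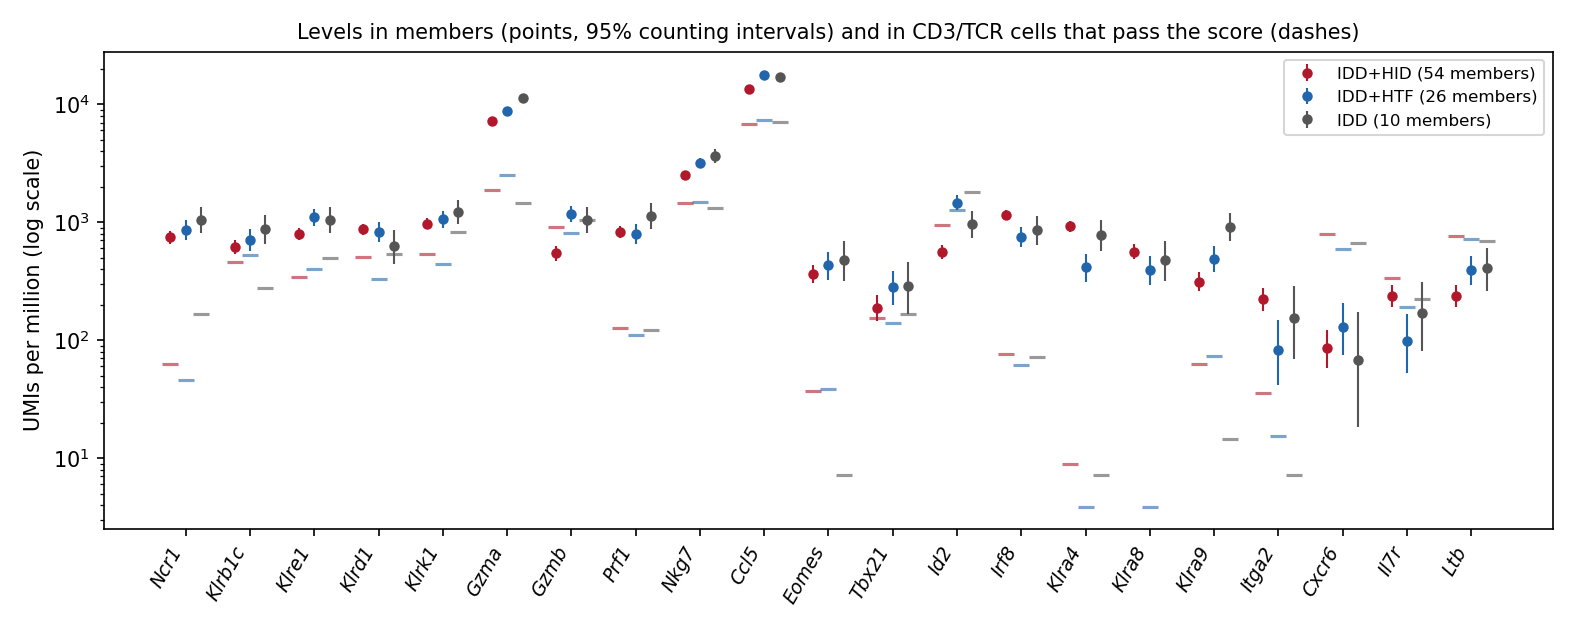
Levels of 21 NK, ILC1 and cytotoxic genes in counts per 1000000 UMIs on a log axis, with points and exact Poisson 95% intervals for the NK and ILC1 cells of IDD+HID, IDD+HTF and IDD, and dashes for CD3/TCR cells that met the score. Klra8 and Klra4 are far above the dashes where a dash is drawn, while Cxcr6 is below its dashes in all 3 libraries; a CD3/TCR level of 0 is not drawn.

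Conventional NK genes outweighed ILC1 genes in each library. The conventional NK list summed to 5531, 4838 and 5740 CPM in IDD+HID, IDD+HTF and IDD, beside 507, 412 and 297 CPM in the CD3 cells that met the score. The ILC1 list summed to 1171, 1157 and 968 CPM, beside 3263, 2743 and 2866 CPM in those CD3 cells. Cd200r1 had 4, 0 and 0 UMIs, and Zfp683, the gene of the tissue-residency factor Hobit, had 1, 1 and 0, so these ILC1 markers were near the limit of detection. Such UMI counts of sparse genes are out of the unequal totals of 359616, 132292 and 58883 UMIs.

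Single cells were then sorted by 5 genes on each side, which gives a range cut from a score and not types. The NK side held at least 1 UMI of Eomes, Itga2, S1pr5, Klra4 or Klra8 and none of Cxcr6, Cd200r1, Il7r, Zfp683 or Itga1, and the ILC1 side was the reverse. The NK side held 35 of 54 cells in IDD+HID, 20 of 26 in IDD+HTF and 8 of 10 in IDD, or 64.8% (50.6 to 77.3%), 76.9% (56.4 to 91%) and 80% (44.4 to 97.5%). The ILC1 side held 8, 6 and 0 cells, and both kinds of gene were present in 11, 0 and 2 cells. As a share, the ILC1 side was 14.8% for IDD+HID (6.62 to 27.1%), 23.1% for IDD+HTF (8.97 to 43.6%) and 0% for IDD, where the interval reached 30.8%, so the 3 libraries could not be told apart at this number of cells.

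Depth enters these counts. The cells with both kinds of gene in IDD+HID had a median of 9245 UMIs, against 5945 on the NK side and 5396 on the ILC1 side, and 4 of the 11 were the cells with endothelial or Kupffer transcripts. Thinned to 1000 UMIs a cell, the expected NK side was 64.5%, 60% and 66.5%, and the ILC1 side 17.6%, 15.7% and 9.05%. Of the 2 IDD cells with both kinds of gene, 1 had 14 UMIs of the ILC1 genes and 1 UMI of the NK genes, and the other had 1 and 2. Most of the remaining IDD+HID cells with both kinds likewise had only 1 UMI of one kind. Cells with at least 3 UMIs of the ILC1 genes, whatever their NK genes, were 15, 4 and 1. Their shares were 27.8% (16.5 to 41.6%), 15.4% (4.36 to 34.9%) and 10% (0.253 to 44.5%), with IDD+HID now above IDD+HTF. The 15 include the 4 cells with endothelial or Kupffer transcripts. Without Itga1 among the ILC1 genes, a choice made after seeing the data, the NK side was 40, 20 and 9 cells and the ILC1 side 7, 5 and 0.

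**Figure D3:**
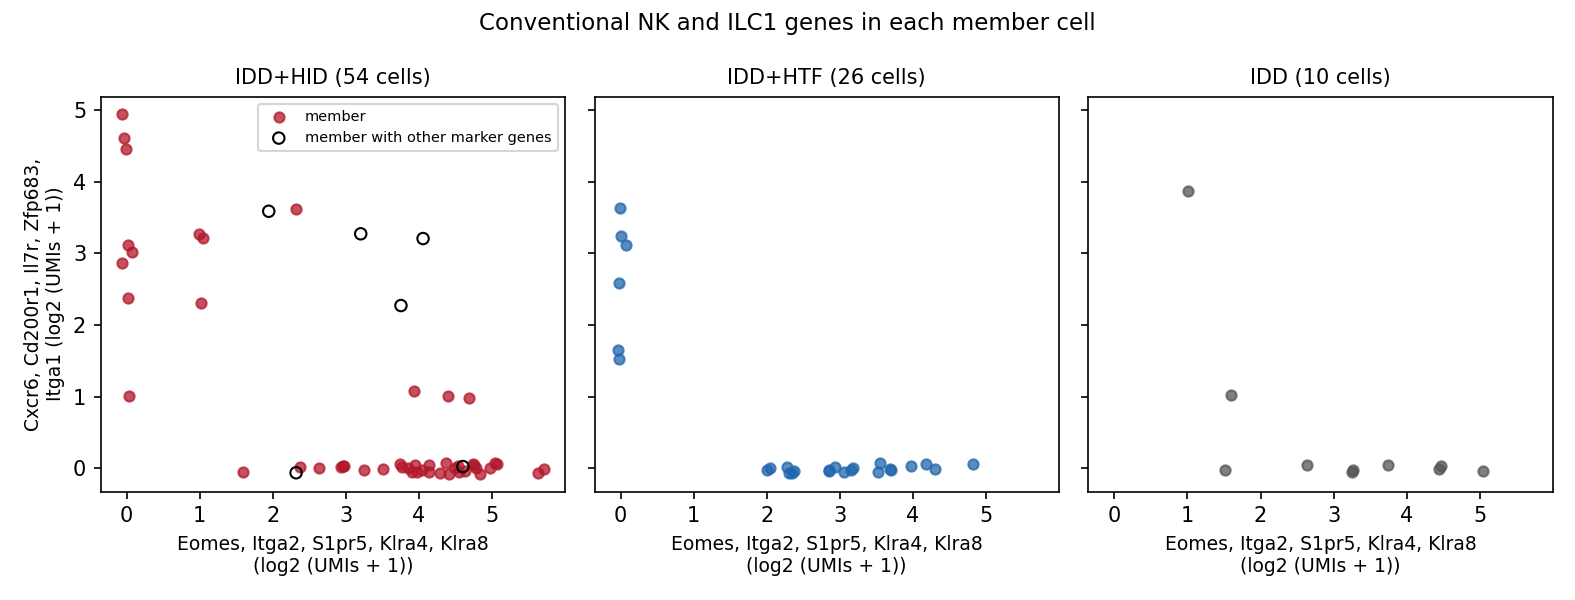
Sum of the 5 ILC1 genes against the sum of the 5 conventional NK genes in each NK or ILC1 cell, as log2 (UMIs + 1) with slight scatter added, in IDD+HID, IDD+HTF and IDD. Most cells lie along one axis or the other, 11 cells of IDD+HID and 2 of IDD carry both, and open circles mark the 6 IDD+HID cells with marker genes of other liver cells.

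Genes that did not sort the cells differed between the sides in both libraries that had an ILC1 side. Ltb stood at 1622 CPM on the ILC1 side of IDD+HID, in 8 of 8 cells, against 4.63 CPM on the NK side, in 1 of 35. In IDD+HTF it stood at 1442 CPM in 6 of 6 ILC1-side cells, against 96.9 CPM in 5 of 20 NK-side cells. On the NK side of IDD, with no ILC1 side to set it against, Ltb stood at 485 CPM in 4 of 8 cells. Tmem176b, a membrane protein gene, stood at 548 CPM on the ILC1 side of IDD+HID against 9.25 CPM on the NK side, and at 309 CPM in IDD+HTF against 0 CPM.

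Xcl1, the chemokine that attracts cross-presenting dendritic cells, was also higher on the ILC1 side. It stood at 7745 CPM in 8 of 8 ILC1-side cells of IDD+HID, against 920 CPM in 24 of 35 NK-side cells. In IDD+HTF it stood at 2438 CPM in 6 of 6 cells, against 1241 CPM in 11 of 20. The surface protein gene Cd7 followed the same order, at 868 against 328 CPM in IDD+HID and 1408 against 281 CPM in IDD+HTF.

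Other genes were higher on the NK side, and are named here after their values were seen. Zeb2, a transcription factor of NK maturation, stood at 91.4 CPM on the ILC1 side of IDD+HID against 407 CPM on the NK side, and at 34.3 against 514 CPM in IDD+HTF. Klrg1, a receptor of mature NK cells, and the Ly49 genes Klra7 and Klra9 had 0 UMIs on the ILC1 side of both libraries. That side held only 43771 UMIs in IDD+HID and 29128 in IDD+HTF. It was also cut by 0 UMIs of Klra4 and Klra8, close copies of Klra7 and Klra9. The zeros of Klra7 and Klra9 are therefore not independent of the sorting. Gzma, which belongs to the score, was at 1645 against 10642 CPM in IDD+HID and 4703 against 9955 CPM in IDD+HTF, while Ncr1, also in the score, was at 1097 against 768 CPM and 1167 against 776 CPM. Zeb2 and Gzma were lower and Ncr1 somewhat higher on the ILC1 side of both libraries.

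The 3 libraries were then compared gene by gene over the summed cells. A gene was measured with at least 20 UMIs in the 2 libraries together, and a difference of at least 2-fold was counted. In IDD+HID over IDD, 606 of 3730 measured genes were higher (16.2%) and 266 were lower (7.13%). In IDD+HTF over IDD, 151 of 1607 were higher (9.4%) and 116 lower (7.22%). Of 4163 genes measured in IDD+HID over IDD+HTF, 609 were higher (14.6%) and 190 lower (4.56%). The first and second comparisons share the IDD library, with its 10 cells.

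These splits moved with the scaling. TMM scaling shifted all log2 ratios by 0.34 in IDD+HID over IDD, 0.36 in IDD+HTF over IDD and -0.02 in IDD+HID over IDD+HTF. With it, 930 genes were higher and 110 lower in IDD+HID over IDD, and 273 higher and 41 lower in IDD+HTF over IDD. With median-of-ratios scaling the counts were 761 and 173, and 240 and 53. Without the 6 cells with other marker genes, 455 of 3152 genes were higher and 209 lower in IDD+HID over IDD, and 415 of 3603 were higher and 169 lower in IDD+HID over IDD+HTF.

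The 8 genes with the largest lower bound in IDD+HID over IDD were Apoe, Dnase1l3, Cd74, Ptprb, H2-Eb1, Kdr, Aqp1 and Igfbp7; Dnase1l3, Ptprb and Kdr are on the endothelial list and Cd74 is on the B cell list. Apoe, an apolipoprotein gene, stood at 2099 CPM in IDD+HID, and at 629 CPM there without the 6 cells, against 119 CPM in IDD. Cd74, the invariant chain of MHC class II, had 257 UMIs in IDD+HID, and 12 without the 6 cells, against 1 in IDD. Dnase1l3, a secreted nuclease, had 185 UMIs against 0, and Kdr, the VEGF receptor 2, had 110 against 0. On the endothelial list, 10 of the 11 measured were 2-fold or more above IDD in IDD+HID, beside 16.2% of all genes. Above IDD+HTF, 11 of 11 were so, beside 14.6%. All 11 had 0 UMIs in IDD, and 10 had 0 in IDD+HTF. These genes were measured through their UMIs in IDD+HID alone, so the 2 counts are a description and no separate support. Without the 6 cells, no endothelial gene was measured in IDD+HID over IDD.

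The shared NK list was read against the shares of all measured genes. Set against IDD, IDD+HID had 2 of 25 measured genes of the shared NK list at least 2-fold higher and 0 lower, beside 16.2% and 7.13% of all genes. In IDD+HTF over IDD, 1 of 24 was higher and 0 lower, beside 9.4% and 7.22%. With IDD+HTF as the comparison, IDD+HID had 0 of 25 higher and 2 lower, beside 14.6% and 4.56%. In the set without these 6 cells, 3 were higher and 0 lower in IDD+HID over IDD, and 2 higher and 1 lower in IDD+HID over IDD+HTF. The list summed to 31667, 37969 and 35970 CPM in IDD+HID, IDD+HTF and IDD. Klrk1, the activating receptor NKG2D, stood at 970, 1058 and 1223 CPM, and Klrd1, the CD94 partner of NKG2 receptors, at 870, 832 and 628 CPM.

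Of the cytotoxic list, 1 of 13 measured genes was higher by 2-fold and 0 lower in IDD+HID over IDD (1 of 12 and 0 without the 6 cells). Of all genes measured in that comparison with all cells, 16.2% were higher and 7.13% lower. In IDD+HTF over IDD 0 of 11 passed, beside 9.4% higher and 7.22% lower over all genes. For IDD+HID over IDD+HTF, 1 of 15 was higher and 2 lower, beside 14.6% and 4.56% of all genes, and 3 were higher and 1 lower without the 6 cells. Gzmb, which encodes granzyme B, stood at 545, 1179 and 1053 CPM in IDD+HID, IDD+HTF and IDD. It was 2.16-fold lower in IDD+HID over IDD+HTF (95% interval 1.74 to 2.68) with all cells, and at 636 CPM in IDD+HID without the 6 cells it was under 2-fold. Serpinb9, an inhibitor of granzyme B, stood at 740, 393 and 696 CPM. Lamp1, a lysosome and granule membrane protein, had 53, 6 and 1 UMIs.

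The receptor list had 4 of 28 measured genes higher and 2 lower by 2-fold in IDD+HID over IDD, 1 of 26 higher and 0 lower in IDD+HTF over IDD, and 1 of 29 higher and 1 lower in IDD+HID over IDD+HTF. The shares of all genes were 16.2% and 7.13%, 9.4% and 7.22%, and 14.6% and 4.56%, so the receptor counts were at or below those shares. Without the 6 cells, 3 of 27 were higher and 1 lower in IDD+HID over IDD, and 1 of 29 higher and 1 lower in IDD+HID over IDD+HTF. Among the Ly49 genes, the order of the libraries differed from gene to gene. Klra4 stood at 926, 416 and 781 CPM in IDD+HID, IDD+HTF and IDD, and was 2.23-fold higher in IDD+HID over IDD+HTF (1.67 to 3.02). Klra9 stood at 314, 491 and 917 CPM and was 2.92-fold lower in IDD+HID over IDD. Klra7, the inhibitory receptor Ly49G, stood at 362, 431 and 119 CPM, with UMIs in 21 of 54, 10 of 26 and 1 of 10 cells. Each NK cell expresses only some Ly49 genes, and in IDD the value of a gene rests on few cells.

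Of the transcription factor list, 2 of 19 measured genes were higher by 2-fold and 0 lower in IDD+HID over IDD, 3 of 15 higher and 0 lower in IDD+HTF over IDD, and 1 of 19 higher and 3 lower in IDD+HID over IDD+HTF. Beside them, 16.2% and 7.13%, 9.4% and 7.22%, and 14.6% and 4.56% of all genes passed. With the 6 cells left out, 2 of 18 were higher and 0 lower in IDD+HID over IDD, and 1 of 19 higher and 4 lower in IDD+HID over IDD+HTF. Id2, an inhibitor of E proteins that all innate lymphoid cells need, stood at 559, 1466 and 968 CPM in IDD+HID, IDD+HTF and IDD, and was 2.62-fold lower in IDD+HID over IDD+HTF (2.14 to 3.21). Gata3 stood at 91.8, 333 and 170 CPM and was 3.62-fold lower in that comparison (2.26 to 5.88). Id2 and Gata3 were highest in IDD+HTF. Eomes and Tbx21, which encodes T-bet, were under 2-fold in all 3 comparisons, with Tbx21 at 189, 280 and 289 CPM.

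Il18rap, a cytokine receptor gene, was lowest in IDD+HTF. This subunit of the IL-18 receptor stood at 370, 174 and 662 CPM in IDD+HID, IDD+HTF and IDD, with UMIs in 44 of 54, 13 of 26 and 9 of 10 cells. It was 3.81-fold lower in IDD+HTF over IDD (2.22 to 6.68) and 2.13-fold higher in IDD+HID over IDD+HTF (1.36 to 3.47). In CD3 cells that met the score it stood at 97.5, 76.9 and 159 CPM. Il18r1, the other subunit, stood at 309, 378 and 204 CPM, an order unlike that of Il18rap. Of the cytokine receptor list, 4 of 14 measured genes were higher by 2-fold and 0 lower in IDD+HID over IDD+HTF. Over all genes, 14.6% were higher and 4.56% lower. Without the 6 cells 4 of 12 were higher, beside 415 of 3603 genes. The list summed to 5745, 4150 and 4976 CPM in IDD+HID, IDD+HTF and IDD, so IDD lay between the others.

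On the cytokine list, 1 of 9 measured genes was higher by 2-fold and 1 lower in IDD+HID over IDD, 2 of 9 higher and 0 lower in IDD+HTF over IDD, and 0 of 10 higher and 2 lower in IDD+HID over IDD+HTF. Beside them, 16.2% and 7.13%, 9.4% and 7.22%, and 14.6% and 4.56% of all genes passed. Without the 6 cells, 2 of 9 were higher and 0 lower in IDD+HID over IDD, and 0 of 10 higher and 2 lower in IDD+HID over IDD+HTF. Ifng stood at 684 CPM (601 to 775, exact Poisson 95% interval) in IDD+HID, at 2895 CPM (2612 to 3200) in IDD+HTF and at 1478 CPM (1183 to 1822) in IDD. UMIs of Ifng were found in 34 of 54, 18 of 26 and 9 of 10 cells, and the single highest cell held 13.4%, 23.5% and 49.4% of them. The intervals of the 3 libraries did not overlap, but they treat UMIs of the same cell as independent. In IDD, 2 cells held 43 and 36 UMIs of Ifng, and no other cell held more than 2. The median cell stood at 202, 602 and 207 CPM.

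Ifng was 4.23-fold lower in IDD+HID over IDD+HTF (3.60 to 4.99), and 3.54-fold lower (3.01 to 4.18) without the 6 cells. It was 1.96-fold higher in IDD+HTF over IDD (1.55 to 2.50). Over IDD, IDD+HID was 2.16-fold lower (1.67 to 2.77), and it was no longer past 2-fold with TMM scaling or without the 6 cells. In CD3 cells that met the score, Ifng stood at 1142, 750 and 789 CPM, so the order of the libraries there was not that of the NK and ILC1 cells. Of B cells, 4 of 478, 1 of 182 and 0 of 91 had a UMI of Ifng.

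Xcl1 stood apart in the other direction. Its level was 1727 CPM (1594 to 1868) in IDD+HID, 1504 CPM (1302 to 1728) in IDD+HTF and 391 CPM (248 to 586) in IDD, in 42 of 54, 17 of 26 and 5 of 10 cells. It was 4.42-fold higher in IDD+HID over IDD (2.92 to 7.03) and 3.85-fold higher in IDD+HTF over IDD (2.50 to 6.22). IDD lay below both other libraries, whose intervals overlapped. The IDD library had no cell on the ILC1 side, where Xcl1 was highest in the other libraries. On the NK side alone Xcl1 stood at 920, 1241 and 424 CPM, the last on 8 cells and 49505 UMIs. The part of the ILC1 side in the Xcl1 order was not tested. In CD3 cells that met the score, Xcl1 stood at 1490, 1377 and 1954 CPM.

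Csf2, which encodes GM-CSF, had 1, 48 and 2 UMIs in IDD+HID, IDD+HTF and IDD. The 48 UMIs of IDD+HTF came from 2 cells, and 1 of them held 93.8%. The chemokine genes Ccl3 and Ccl4 stood at 1338 and 3423 CPM in IDD+HID, at 1225 and 4294 in IDD+HTF and at 2378 and 2615 in IDD. Ccl5 stood at 13361, 17613 and 17085 CPM, and Ccl3, Ccl4 and Ccl5 were under 2-fold in all comparisons.

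**Figure D4:**
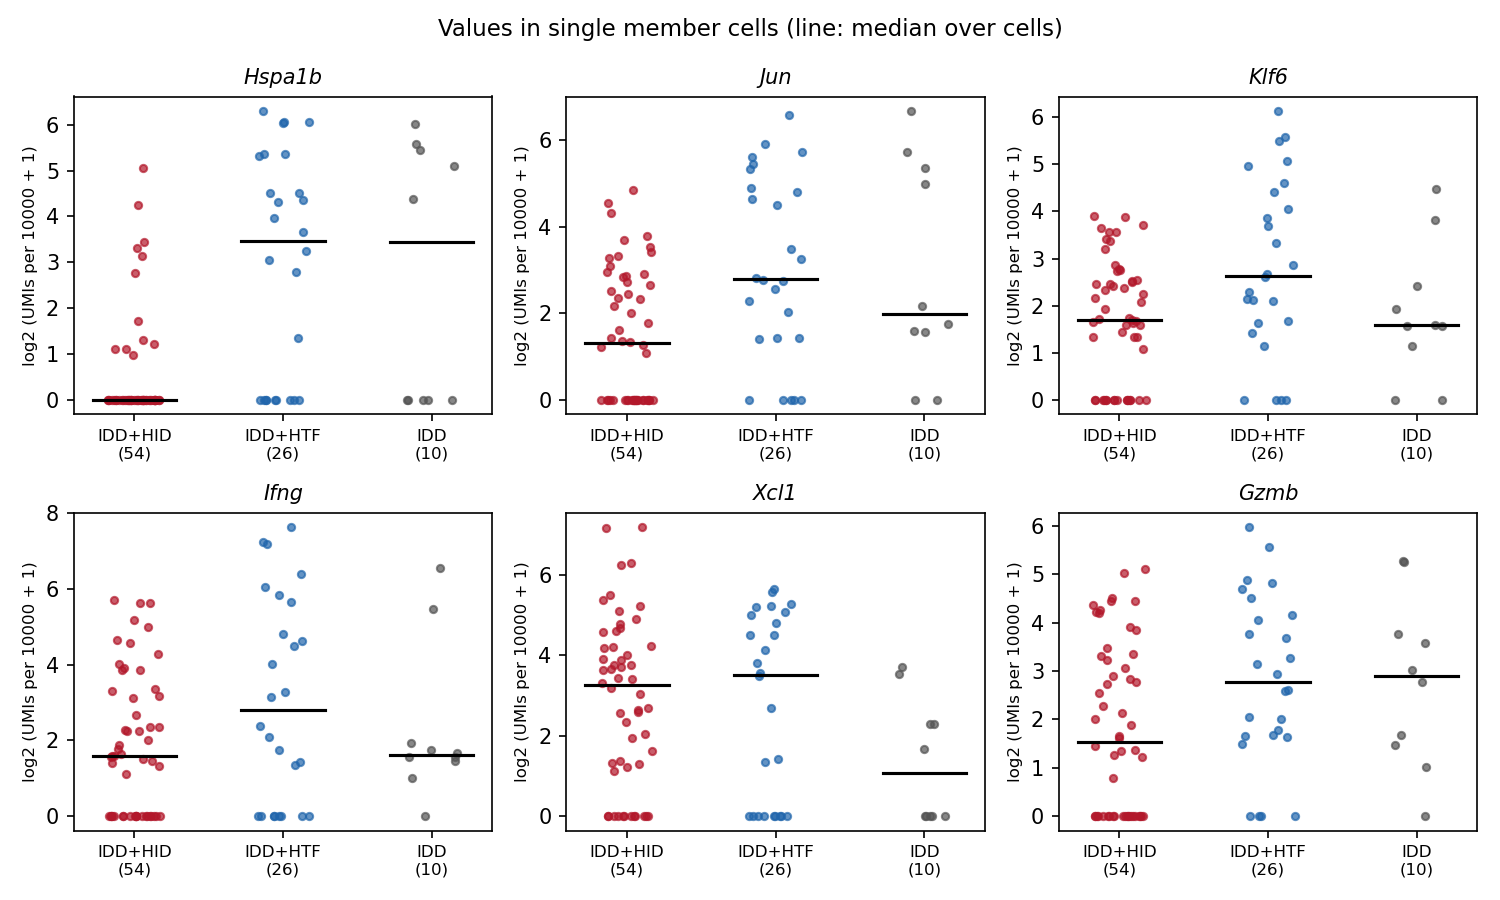
Hspa1b, Jun, Klf6, Ifng, Xcl1 and Gzmb in single NK and ILC1 cells, as log2 (UMIs per 10000 + 1), with the median as a line, in IDD+HID (54 cells), IDD+HTF (26 cells) and IDD (10 cells). Most IDD+HID cells have no Hspa1b UMI, and the highest Ifng values in IDD come from 2 cells.

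Stress genes also differed, led by a pair of inducible heat shock genes. Hspa1a and Hspa1b encode nearly identical Hsp70 chaperones and lie beside each other on chromosome 17, with Hspa1a at chr17:34969190-34972156 and Hspa1b at chr17:34956436-34959238, both on the minus strand (GRCm38). Their upstream sequences are shown because the 250 bases before each start site differ at only 3 positions, in capitals, as an illustration of how alike the pair is. They come from RefSeq (GRCm38.p6), are written 5′ to 3′ on the minus strand, and span chr17:34972157-34972406 and chr17:34959239-34959488.
Hspa1a: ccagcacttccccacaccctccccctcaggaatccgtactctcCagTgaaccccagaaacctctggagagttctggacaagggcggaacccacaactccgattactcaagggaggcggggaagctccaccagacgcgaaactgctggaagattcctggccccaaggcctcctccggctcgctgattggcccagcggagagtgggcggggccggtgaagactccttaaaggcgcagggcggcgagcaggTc
Hspa1b: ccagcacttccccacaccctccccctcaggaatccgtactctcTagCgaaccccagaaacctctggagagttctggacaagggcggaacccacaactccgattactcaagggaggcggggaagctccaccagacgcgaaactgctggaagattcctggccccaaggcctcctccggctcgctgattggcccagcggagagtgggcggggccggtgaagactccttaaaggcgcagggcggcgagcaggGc
The transcripts are near-identical too, so the division of reads between the 2 genes is uncertain.

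Hspa1b stood at 167 CPM (127 to 215) in IDD+HID, at 1807 CPM (1585 to 2051) in IDD+HTF and at 2242 CPM (1876 to 2658) in IDD. It was found in 12 of 54, 17 of 26 and 5 of 10 cells, and in 9.32%, 53.3% and 48.5% of cells after thinning to 1000 UMIs. It was 13.4-fold lower in IDD+HID over IDD (9.83 to 18.6) and 10.8-fold lower in IDD+HID over IDD+HTF (8.13 to 14.6). For IDD+HTF over IDD it was 1.24-fold lower (0.996 to 1.54), and its log2 ratio was 0.05 with TMM scaling, so the direction was not settled. Hspa1a stood at 131, 839 and 577 CPM, and 97.1% of the IDD UMIs came from 1 cell.

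Other cells of the same livers had a related order for Hspa1b. CD3 cells that met the score stood at 1136, 2293 and 1578 CPM, and B cells at 273, 2287 and 4378 CPM. All other cells, as 1 sum, stood at 722, 1096 and 1154 CPM, and free RNA at 300, 312 and 140 CPM. IDD+HID was lowest in each of these cell groups, as in the NK and ILC1 cells. What the cell groups share in this order was not tested.

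Other chaperone genes did not all follow the order of Hspa1b. Hsp90aa1, a cytosolic Hsp90, stood at 403, 854 and 1172 CPM in IDD+HID, IDD+HTF and IDD and was 2.91-fold lower in IDD+HID over IDD (2.15 to 3.90). Dnajb1, an Hsp40 co-chaperone, stood at 175, 552 and 84.9 CPM and was 6.50-fold higher in IDD+HTF over IDD (2.66 to 20.6). Hsp90ab1 stood at 1471, 2638 and 1308 CPM. Hsph1, Dnaja1 and Hspe1 were likewise highest in IDD+HTF, while Hspa8 and Hspd1 were highest in IDD and Hspa5, the chaperone of the endoplasmic reticulum, in IDD+HID. Of 11 measured heat shock genes, 6 were at least 2-fold lower and 0 higher in IDD+HID over IDD+HTF, beside 4.56% lower over all genes. In IDD+HTF over IDD 4 of 11 were higher and 0 lower, beside 9.4% higher and 7.22% lower over all genes. In IDD+HID over IDD 1 was higher and 3 lower, beside 16.2% and 7.13%. The median log2 ratio of the list was 0.01 in IDD+HID over IDD, 0.54 in IDD+HTF over IDD and -1.01 in IDD+HID over IDD+HTF, beside 0.12, -0.03 and 0.19 over all measured genes. When the 6 cells were omitted, 5 of 11 were lower in IDD+HID over IDD+HTF, beside 169 of 3603 genes, and the list median was -0.92. The nuclear RNA Malat1, a sign of cell and RNA quality, moved with these genes, at 17847, 27991 and 19972 CPM, while the median mitochondrial share was 3.96%, 3.57% and 3.001%; their part in the result was not tested.

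Immediate early genes, which cells switch on within minutes of stimulation, differed gene by gene. Jun stood at 478, 1701 and 2242 CPM in IDD+HID, IDD+HTF and IDD, and was 4.69-fold lower in IDD+HID over IDD (3.71 to 5.92). The top IDD cell held 39.4% of its UMIs there. In CD3 cells that met the score Jun stood at 934, 1270 and 2316 CPM, the same order. Klf6, a zinc finger factor, stood at 359, 1293 and 408 CPM, beside 921, 761.8 and 970 CPM in the CD3 cells, which is not the same order.

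Dusp1, a phosphatase that switches off MAP kinases, stood at 623, 1036 and 221 CPM, and was 4.69-fold higher in IDD+HTF over IDD (2.65 to 9.03). Klf2, although a factor of lymphocyte quiescence and trafficking, is also counted in this list. It stood at 1204, 3122 and 2734 CPM and was 2.27-fold lower in IDD+HID over IDD (1.88 to 2.73). Of 20 measured immediate early genes, 5 were higher and 3 lower by 2-fold in IDD+HID over IDD, beside 16.2% and 7.13% of all genes, and 2 were higher and 5 lower in IDD+HID over IDD+HTF, beside 14.6% and 4.56%. In IDD+HTF over IDD 5 of 18 were higher and 0 lower, beside 9.4% and 7.22%. The median log2 ratio was 0.03 in IDD+HID over IDD, 0.43 in IDD+HTF over IDD and -0.71 in IDD+HID over IDD+HTF, beside 0.12, -0.03 and 0.19 over all measured genes. Without the 6 cells, 3 were higher and 4 lower in IDD+HID over IDD, and 2 higher and 6 lower in IDD+HID over IDD+HTF.

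**Figure D5:**
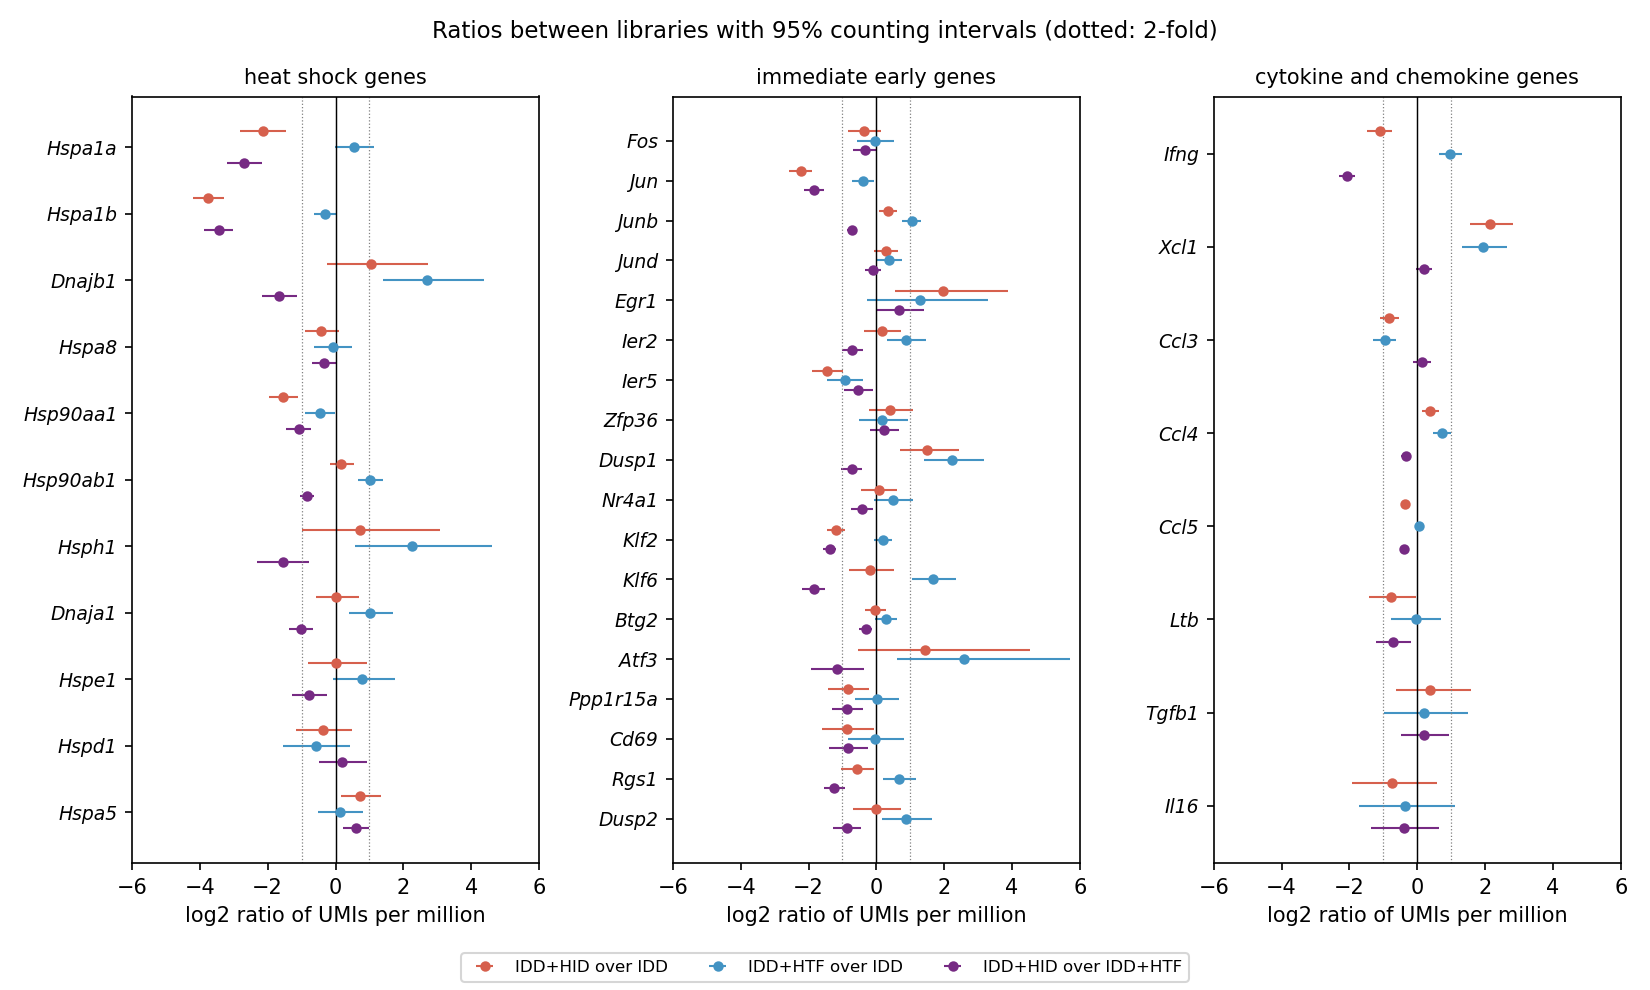
Log2 ratios of counts per 1000000 UMIs, with 95% counting intervals, for heat shock, immediate early and cytokine genes over the summed NK and ILC1 cells, in IDD+HID over IDD, IDD+HTF over IDD and IDD+HID over IDD+HTF. Dotted lines mark 2-fold; Hspa1a, Hspa1b and Jun lie far left in both comparisons with IDD+HID on top, and Xcl1 lies right in both comparisons over IDD.

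Iron genes bear on what the diets and the injection changed, and few of the list were measured. Fth1, the ferritin heavy chain that stores iron, had a UMI in every cell and stood at 1093 CPM (987 to 1206) in IDD+HID, at 1089 CPM (918 to 1282) in IDD+HTF and at 1070 CPM (822 to 1369) in IDD. The log2 ratio of Fth1 was 0.03 in IDD+HID over IDD, 0.02 in IDD+HTF over IDD and 0.01 in IDD+HID over IDD+HTF, on intervals of the ratio of 0.781 to 1.36, 0.752 to 1.39 and 0.827 to 1.22. In all other cells Fth1 stood at 3349, 3330 and 2489 CPM, and in B cells at 3339, 2693 and 2993 CPM, so NK and ILC1 cells were lower in each library. CD3 cells were nearer, at 1773, 1624 and 1296 CPM where they met the score and at 1522, 1513 and 1360 CPM below it. In IDD both CD3 values lay inside the interval of the NK and ILC1 cells.

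Ftl1, the ferritin light chain, stood at 1001, 703 and 815 CPM, and at 780 CPM in IDD+HID without the 6 cells with other markers. Tfrc, the transferrin receptor, had 13, 3 and 2 UMIs, too few to compare, and Slc40a1, the iron exporter ferroportin, had 7, 0 and 0. Hmox1, heme oxygenase 1, had 4, 1 and 0. Of the 20 iron genes, 6 were measured in IDD+HID over IDD, where 16.2% of all measured genes were higher and 7.13% lower by 2-fold. Of the 6, 1 was higher (Bach1, a heme-sensing repressor) and 1 lower (Fbxl5, which targets iron regulatory proteins for degradation). They stood at 58.4 and 41.7 CPM in IDD+HID, against 17 and 84.9 CPM in IDD, on 1 and 5 UMIs in IDD. Without the 6 cells with other markers, 0 of 4 measured genes passed, beside 455 higher and 209 lower of 3152 genes. At 2-fold, 0 of 3 passed in IDD+HTF over IDD, beside 9.4% higher and 7.22% lower over all genes. In IDD+HID over IDD+HTF 0 of 7 passed, beside 14.6% and 4.56%. As background, ferritin synthesis is mainly controlled at translation, which these counts do not measure.

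Of the remaining genes named by their bounds, Ddit4, an inhibitor of mTORC1 signalling, had 3 UMIs in IDD+HID against 20 in IDD, a 40.7-fold lower level per UMI sequenced (12.1 to 214). Gadd45g, a stress-response gene, stood at 80.6, 22.7 and 645 CPM in IDD+HID, IDD+HTF and IDD. Both genes were also lower than in IDD in CD3 cells that met the score. There the log2 ratio of Ddit4 was -1.88 in IDD+HID over IDD. That of Gadd45g was -2.23 in IDD+HID over IDD and -6.04 in IDD+HTF over IDD, on 42, 1 and 35 UMIs. Once the 6 cells were dropped, Zfp36l2, an RNA-binding protein that promotes mRNA decay, was 2.92-fold higher in IDD+HID over IDD (2.17 to 4.01) at 2327 against 798 CPM. Dusp5, a phosphatase of ERK, was 4.01-fold higher (2.30 to 7.63) at 885 against 221 CPM, and stood at 625 against 181 CPM in CD3 cells that met the score. Dennd4a was 3.42-fold higher in IDD+HID over IDD+HTF (2.38 to 5.04) at 878 against 257 CPM.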

How the data were processed

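The deposited values are raw UMI counts per gene and barcode, 1 matrix per library, with all barcodes kept. Per the labels, they come from 10x 3' libraries. The submitters' processing notes name GRCm38 and Seurat 4; an aligner or counter, not given in the sources used here, cannot be named. GENCODE M21 held 54587 of the 55421 gene IDs, version included.

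Counts were summed over the NK and ILC1 cells of each library and scaled to counts per 1000000 UMIs (CPM). Levels have exact Poisson, ratios exact conditional binomial and shares exact Clopper-Pearson 95% intervals; a ratio against 0 uses a floor of 3 counts. With 1 mouse a group there is no test. The calculation of ratios was checked on simulated counts. Thinning to 1000 UMIs is an expectation over all draws. No doublet caller was run. Named genes were the score genes, genes of the NK, ILC1, cytotoxic, receptor, transcription factor, cytokine and iron lists, and, per comparison and direction, the 8 measured genes whose interval lay furthest from 1, at least 1.5-fold; heat shock, immediate early, side and other genes were named after their values were seen. The cells, gene lists and comparisons were chosen with earlier results of these data known. Python 3.11.15, numpy 2.4.6, scipy 1.17.1 and, for TMM, edgeR 4.0.16 in R 4.3.3 were used. Some genes are not reported here.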

Additional observations from a re-analysis of the deposited data

Results flagged for a closer look

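In IDD+HID, 7 barcodes with at least 1000 UMIs met the NK score but had more than 20% mitochondrial UMIs (21.6 to 51.6%), against 0 in IDD+HTF and 0 in IDD. They are outside every comparison above, their scores ran between 3 and 127 UMIs, and what sets them apart was not tested.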

How the results depend on the processing

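No paired analysis was possible because each group has 1 library. The shares of cells stayed within the intervals above under every limit tried, at 1.28 to 1.65% in IDD+HID, 0.686 to 1.01% in IDD+HTF and 0.691 to 1.03% in IDD. Counts of genes past 2-fold moved most. In IDD+HID over IDD, TMM gave 930 higher and 110 lower, median-of-ratios 173 lower, no filter 2905 lower, and a minimum of 50 UMIs 177 higher and 47 lower. In IDD+HTF over IDD, TMM gave 273 and 41, median-of-ratios 240 and 53, no filter 748 and 2259, and 50 UMIs 50 and 24. In IDD+HID over IDD+HTF, no filter gave 1480 and 1717, and 50 UMIs 134 and 74. Of 176 ratios of named genes, 21 turned sign in at least 1 setting, and none of these was past 2-fold; Hspa1b in IDD+HTF over IDD is one. Without the 6 cells with other marker genes, 9 of 28 ratios past 2-fold in IDD+HID over IDD and 10 of 32 in IDD+HID over IDD+HTF no longer were. Leaving out Itga1, or the 6 cells from the side counts and the naming rule, was chosen after seeing the data. The 10 cells of IDD and their 58883 UMIs set the limit on every comparison over IDD.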
